A study of Mus musculus with 5 samples.

Results

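A set of 10 genes of the interleukin-1 (IL-1) family and of the inflammasome was followed in macrophages. They were listed by gene symbol, with earlier results of these data known. They were Il1a, Il1b, Il18, Il1rn, Il18bp, Il1r1, Il1r2, Il1rap, Nlrp3, and Casp1, which are 10 of the 17058 genes with a row in the deposited libraries, and all 10 were among the 12576 genes that were tested. The macrophages were bone marrow–derived macrophages (BMDMs) of BALB/c mice, grown from bone marrow with M-CSF. They were cocultured for 48 hours with cells of the mouse mammary carcinoma line 4T1, either unedited (WT, n = 2 libraries) or with Adam17 knocked out by CRISPR/Cas9 (Adam17-/-, n = 3 libraries). A porous membrane kept the 2 cell types apart, and RNA came from the macrophages, which were not edited, so that the Adam17 level of these libraries does not check the labels. All 3 Adam17-/- libraries carry the same knock-out designation, 2.8, and what the loss of Adam17 does and what else distinguishes this line cannot be told apart. Nothing in the labels says whether libraries of a group came from separate mice or cultures, so that the p-values below measure the spread between these libraries, which may be technical. The WT libraries differed more from each other (chi-square of 25.7 per degree of freedom over genes) than any pair of Adam17-/- libraries did (5.22 to 6.32). The labels do not give the age of the mice.

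IL-1 alpha and IL-1 beta are inflammatory cytokines that bind the receptor IL-1R1, which then recruits the accessory chain IL-1RAcP (encoded by Il1rap) and signals through MyD88 and IRAK kinases to NF-kappaB. IL-1 beta and IL-18 are made as inactive precursors and are cut by caspase-1, a protease that is activated in inflammasomes, the complexes that sensors such as NLRP3 build with the adaptor ASC. Several members of the family restrain these signals, among them the receptor antagonist encoded by Il1rn, the decoy receptor IL-1R2, and the IL-18 binding protein. Macrophages make most of these proteins, and the level of a transcript says nothing about the cutting or release of the protein.

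The sequences just upstream of the genes' starts are shown for the 2 members that fell, Il1b and Nlrp3, and for Il1a, the neighbor of Il1b on chromosome 2. They are 250 bases on the gene's strand, 5′ to 3′, ending at the base before a start that RefSeq gives on GRCm38.p6, chosen because it is also the start of the listed transcript. The RefSeq spans of all 3 genes begin further upstream, those of Il1a and Il1b at 129310186 and 129371164, so that the whole Nlrp3 window and parts of the other windows lie within the gene's span. Capitals mark matches, on either strand, to TATAAA (the TATA box), GAGGAA (the PU.1 core), TGANTCA (AP-1), TTGCNNAA (C/EBP) or the kappaB consensus, and none of the matches in these windows overlapped another.
Il1b, chr2:129371140-129371389, minus strand: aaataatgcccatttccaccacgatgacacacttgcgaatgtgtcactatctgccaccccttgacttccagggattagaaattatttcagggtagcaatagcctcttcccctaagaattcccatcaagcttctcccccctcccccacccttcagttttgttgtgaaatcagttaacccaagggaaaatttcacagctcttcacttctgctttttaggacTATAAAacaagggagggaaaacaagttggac
Nlrp3, chr11:59542436-59542685, plus strand: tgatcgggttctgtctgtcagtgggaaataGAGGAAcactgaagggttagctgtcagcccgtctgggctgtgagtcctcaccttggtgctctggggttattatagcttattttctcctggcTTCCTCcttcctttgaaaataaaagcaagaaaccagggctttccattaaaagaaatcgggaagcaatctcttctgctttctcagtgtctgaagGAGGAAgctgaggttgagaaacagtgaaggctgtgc
Il1a, chr2:129309973-129310222, minus strand: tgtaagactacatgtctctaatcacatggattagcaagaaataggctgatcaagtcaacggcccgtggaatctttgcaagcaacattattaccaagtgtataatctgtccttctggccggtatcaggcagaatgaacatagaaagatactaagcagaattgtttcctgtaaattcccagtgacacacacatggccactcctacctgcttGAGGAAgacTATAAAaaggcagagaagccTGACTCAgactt

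The Il1b window held a TATA box 31 to 26 bases before the start and no other match. The Il1a window held a TATA box 32 to 27 bases before the start, a PU.1 core 41 to 36 bases before it, and an AP-1 match 12 to 6 bases before it. The Nlrp3 window held 3 PU.1 cores, at 220 to 215, 129 to 124, and 36 to 31 bases before the start, and no TATA box. RefSeq gives Nlrp3 another start, 1117 bases upstream, which is the gene's first base and not the start of the listed transcript, and the window before it held a kappaB match at 186 to 177 bases and none of the other motifs. Among the 32851 RefSeq windows of this length in the genome, 12.4% held the TATA letters, 23.3% the PU.1 core, 6.75% the AP-1 letters, 9.56% the C/EBP letters, and 7.25% the kappaB consensus. A match describes the letters only.

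With Adam17-/- coculture, transcripts of Il1b and Nlrp3 were lower, and those of Il1r2, Il18bp, Il1rap, and Casp1 were higher, than with WT coculture. Each difference was under 2-fold in the estimate, with log2 fold changes from -0.69 to 0.81. A gene was called by edgeR's quasi-likelihood test where its p, adjusted by Benjamini-Hochberg over all genes tested, was at most 0.05. On this basis 4 of the 10 members rose and 2 fell, and none of them also reached a log2 fold change of 1 in size, at an unadjusted p under 0.05 or with DESeq2 either. Over all genes tested, 14.9% rose, 16.8% fell, and 4.22% passed and also reached that size. The 3 Adam17-/- libraries lay on 1 side of both WT libraries for 6 of the 10 members, and for 58.1% of all genes tested. The members' median log2 fold change was 0.23, against 0.01 over all genes tested.

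**Figure D1:**
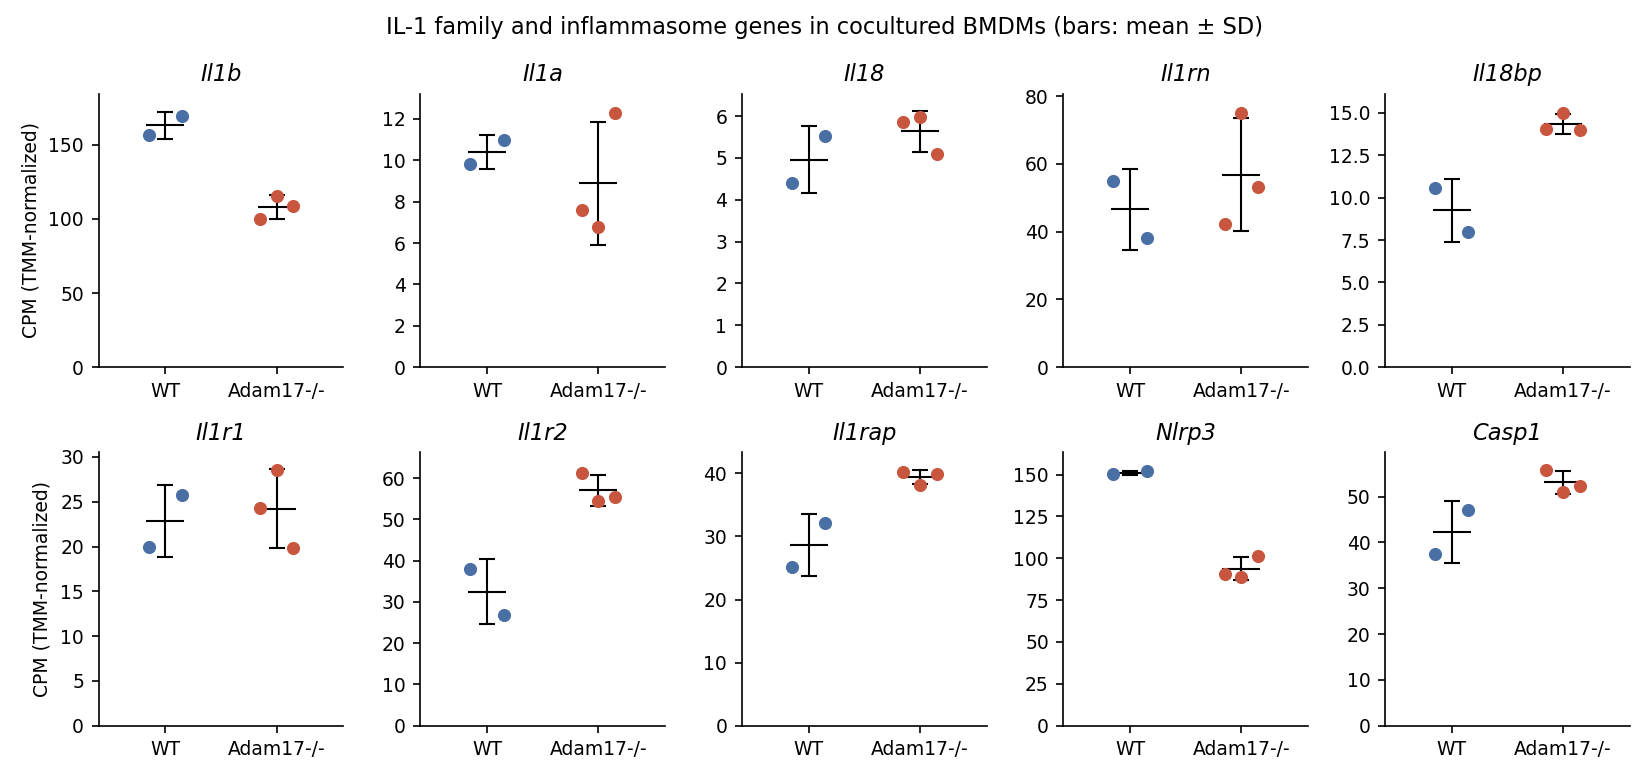
Normalized level (CPM, counts scaled for depth with edgeR's TMM factors, vertical axes from 0) of the 10 genes in each library; points are libraries, the horizontal line is the group mean and the bars show the SD (n = 2 WT and n = 3 Adam17-/- cocultures). The groups lie apart for Il1b, Nlrp3, Il1r2, Il18bp, Il1rap, and Casp1, and overlap for the other 4 genes.

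The 5 libraries held from 14658694 to 20788373 expected counts, and macrophage markers were abundant in all of them. Of the lists of cell type markers, 6 of 8 macrophage genes fell, and their summed level was 27659 to 28416 CPM in WT and 17945 to 19906 CPM in Adam17-/- libraries. Of 15 neutrophil genes, 12 rose, with sums of 1780 to 1870 and 2917 to 3281 CPM. Epithelial markers of 4T1 cells summed to 11.5 to 13.2 and 11.97 to 14.3 CPM, nearly all of it Cdh1, while Epcam, Krt8, Krt19, and Cldn4 had at most 3 counts in any library. Of 6 dendritic cell markers tested, 3 rose (Ccr7, Clec9a, and Fscn1), and Cd209a was lower but did not pass (-0.58, adjusted p = 0.229 by edgeR). Markers of dendritic cells summed to 14.0 to 21.3 and 25.7 to 36.8 CPM. Those of mast cells and basophils summed to 0.812 to 1.31 and 2.07 to 2.30 CPM, and Kit, the only one tested, rose (1.10, adjusted p = 0.047 by edgeR). Those of T and NK cells summed to 1.41 to 3.24 and 2.07 to 4.41 CPM, and Cd4, the only one tested, did not pass (0.10). Fewer cells of a type and less RNA per cell cannot be told apart in bulk libraries such as these.

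**Figure D2:**
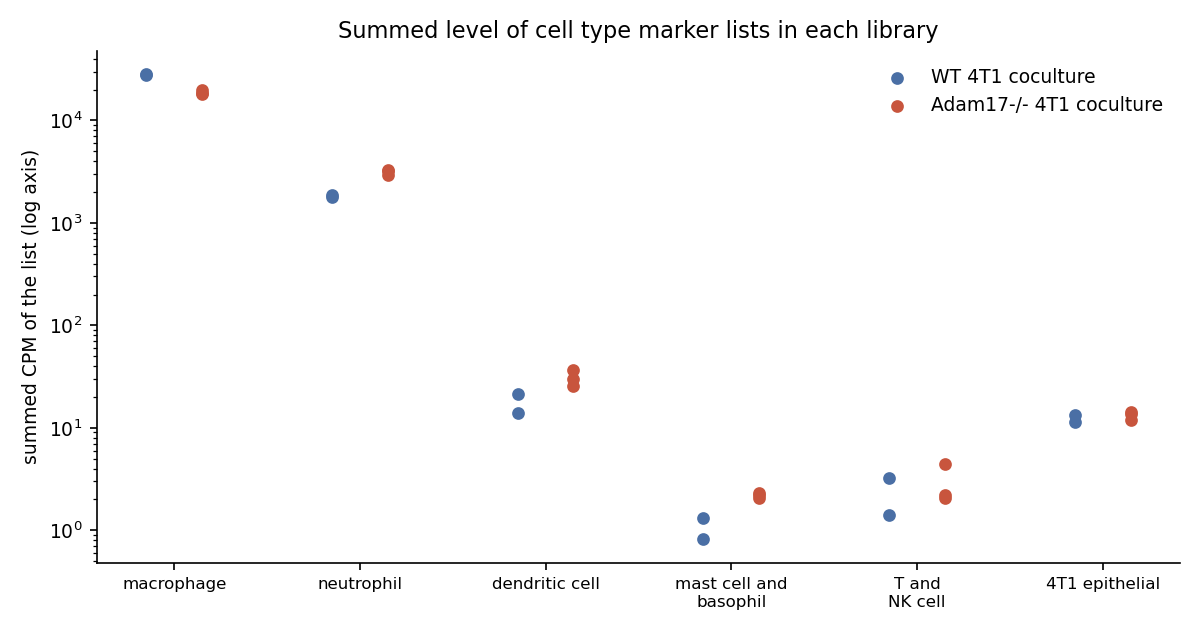
Summed CPM (log axis) of each list of cell type markers in each library, with 1 point per library and colors for the coculture. The macrophage sums of the Adam17-/- libraries lie below both WT sums, the neutrophil sums above, and the epithelial sums overlap.

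Among the ligands, Il1b (Entrez 16176, chr2:129364569-129371164, minus strand) fell. Its level was 157 and 169 CPM in WT replicates 1 and 2, and 99.7, 116, and 109 CPM in Adam17-/- replicates 1 to 3, so that every Adam17-/- library lay below both WT libraries. The log2 fold change was -0.60 ± 0.09 (SE, 95% interval -0.80 to -0.40), a 0.662-fold level, with an adjusted p of 0.0016 by edgeR's quasi-likelihood test. Macrophage markers as a list fell with it and neutrophil markers rose, and their part in the difference was not tested.

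Il1a, which lies 54.4 kb from Il1b and encodes the ligand that also acts as an alarm signal of dying cells, had 9.84 and 10.99 CPM in WT libraries and 7.61, 6.78, and 12.3 CPM in Adam17-/- libraries. Adam17-/- replicate 3 was the highest of the 5 libraries, and the groups overlapped. The log2 fold change was -0.22 ± 0.23 (SE, 95% interval -0.73 to 0.29, adjusted p = 0.488 by edgeR). It ranged from -0.51 without Adam17-/- replicate 3 (adjusted p = 0.0629) to -0.05 without replicate 2, so that single libraries set its size. Il18 (chromosome 9), whose product drives interferon-gamma production by lymphocytes, stood at 4.396 and 5.52 CPM with WT and at 5.86, 5.99, and 5.08 CPM with Adam17-/- coculture. These groups overlapped as well, with a log2 fold change of 0.18 ± 0.17 (SE, 95% interval -0.20 to 0.57, adjusted p = 0.440 by edgeR), which was 0.02 without WT replicate 1 and 0.35 without WT replicate 2. The interval of Il1a includes a fall of the size seen for Il1b, and that of Il18 does not.

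The antagonist of the IL-1 receptor, Il1rn (chr2:24336860-24351491), had 55.1 and 38.1 CPM in WT libraries and 42.2, 74.9, and 53.3 CPM in Adam17-/- libraries. Its highest level was in Adam17-/- replicate 2, and the groups overlapped (log2 fold change 0.28 ± 0.22, SE, 95% interval -0.22 to 0.78, adjusted p = 0.357 by edgeR). The estimate was 0.56 without WT replicate 1, 0.03 without WT replicate 2, 0.48 without Adam17-/- replicate 1, and 0.06 without Adam17-/- replicate 2. Adam17-/- replicate 2 was also the highest of its group for Mpo, a neutrophil precursor gene picked after its values were seen, with 960 counts against 264 and 350. It was likewise the highest for the precursor genes Elane (37.0 CPM against 14.6 and 15.2) and Ctsg (4.80 CPM against 0.547 and 2.22). The same held for Ltf, Ngp, and Csf3r. For the precursor gene Prtn3 it was little above the others (26.1 CPM against 22.2 and 25.1). It was the lowest of its group for Camp, Ly6g, and Retnlg, and in the middle for the remaining neutrophil markers. The part of such cells in the Il1rn level was not tested. Per library, the ratio of Il1rn to Il1b in FPKM (fragments scaled by transcript length and sequencing depth, so that levels are per length) was 0.188 and 0.120 with WT coculture and 0.226, 0.346, and 0.261 with Adam17-/- coculture. The ratios did not overlap between groups and their mean differed by 0.87 on the log2 scale (exact permutation test, two-sided, p = 0.1, the smallest p that 2 against 3 libraries allow, and adjusted over 4 ratios 0.267). With 1 library left out, this difference ran from 0.54 without WT replicate 2 to 1.19 without WT replicate 1.

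The decoys rose. Il1r2, which binds IL-1 without signaling (Entrez 16178, chr1:40084692-40125230), was at 38.0 and 27.0 CPM in WT libraries and at 61.4, 54.4, and 55.5 CPM in Adam17-/- libraries. Every Adam17-/- library lay above both WT libraries, and the log2 fold change was 0.81 ± 0.14 (SE, 95% interval 0.50 to 1.12, adjusted p = 0.0030 by edgeR), which was the largest increase among the members. It was 1.08 without WT replicate 1, then the only member past a log2 fold change of 1, and 0.58 without WT replicate 2, and it passed in both cases. Il18bp (Entrez 16068, chr7:102015074-102018232), which keeps IL-18 from its receptor, was at 10.6 and 7.96 CPM with WT and at 14.1, 15, and 13.98 CPM with Adam17-/- coculture. It rose by a log2 fold change of 0.63 ± 0.14 (SE, 95% interval 0.31 to 0.95, adjusted p = 0.010 by edgeR), with no overlap between groups. The neutrophil and dendritic lists rose with both genes, and their part in these differences was not tested.

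Other ratios set members against each other per length. The ratio of Il1r2 to Il1r1 in FPKM was 6.88 and 3.79 with WT coculture and 9.12, 6.91, and 10.1 with Adam17-/- coculture. The lowest Adam17-/- value was only just above the higher WT value (difference of mean log2 ratios 0.75, exact permutation p = 0.2, adjusted 0.267). The ratio of Il18bp to Il18 was 1.42 and 0.850 with WT and 1.41, 1.47, and 1.62 with Adam17-/- coculture, which overlapped (difference 0.45, exact permutation p = 0.2). The ratio of Il1a to Il1b was 0.0421 and 0.0435 with WT and 0.0512, 0.0394, and 0.0760 with Adam17-/- coculture, and these also overlapped (difference 0.32, exact permutation p = 0.6). Single libraries moved these differences by more than 1.5 times. The Il1r2 to Il1r1 difference was 0.32 without WT replicate 2 and 1.18 without WT replicate 1, that of Il18bp to Il18 was 0.08 and 0.82 without the same libraries, and that of Il1a to Il1b was 0.07 without Adam17-/- replicate 3 and 0.54 without replicate 2.

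Of the 2 receptor chains, the accessory chain rose and the binding chain did not pass the test. Il1rap (Entrez 16180, chr16:26581509-26730128) was at 25.2 and 32.1 CPM in WT and at 40.2, 38.2, and 39.9 CPM in Adam17-/- libraries, with no overlap. Its log2 fold change was 0.46 ± 0.11 (SE, 95% interval 0.20 to 0.72, adjusted p = 0.015 by edgeR), and the call was lost without Adam17-/- replicate 1 (0.46, adjusted p = 0.0635) or replicate 3 (0.47, adjusted p = 0.0565). Without WT replicate 1 the estimate was 0.29. Il1r1 was at 20.0 and 25.7 CPM with WT and at 24.4, 28.6, and 19.8 CPM with Adam17-/- coculture, and the groups overlapped on both sides. Its log2 fold change of 0.08 ± 0.16 (SE, 95% interval -0.28 to 0.44, adjusted p = 0.729 by edgeR) changed sign to -0.10 without WT replicate 1 and to -0.03 without Adam17-/- replicate 2.

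The sensor and the protease of the inflammasome moved in opposite directions. Nlrp3 (Entrez 216799, chr11:59541569-59566955, plus strand) was at 150.2 and 152 CPM in WT libraries and at 90.6, 89.1, and 102 CPM in Adam17-/- libraries, each of which was below both WT libraries. It fell by 0.69 ± 0.09 on the log2 scale (SE, 95% interval -0.88 to -0.50, adjusted p = 0.0008 by edgeR), a 0.621-fold level. Casp1 (Entrez 12362, chr9:5298517-5307281) was at 37.5 and 47.0 CPM with WT and at 55.9, 51.1, and 52.4 CPM with Adam17-/- coculture, again with no overlap. It rose by 0.33 ± 0.11 on the log2 scale (SE, 95% interval 0.08 to 0.58, adjusted p = 0.045 by edgeR), close to the threshold. The call was lost with DESeq2 (0.32, adjusted p = 0.0538) and with the replicate block in edgeR (0.35, adjusted p = 0.129). It was also lost without any 1 of the 3 Adam17-/- libraries (adjusted p from 0.0922 to 0.154 by edgeR). Without WT replicate 1 the estimate was only 0.17. As a list, macrophage markers fell alongside Nlrp3, and neutrophil and dendritic cell markers rose alongside Casp1, and their part was not tested.

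**Figure D3:**
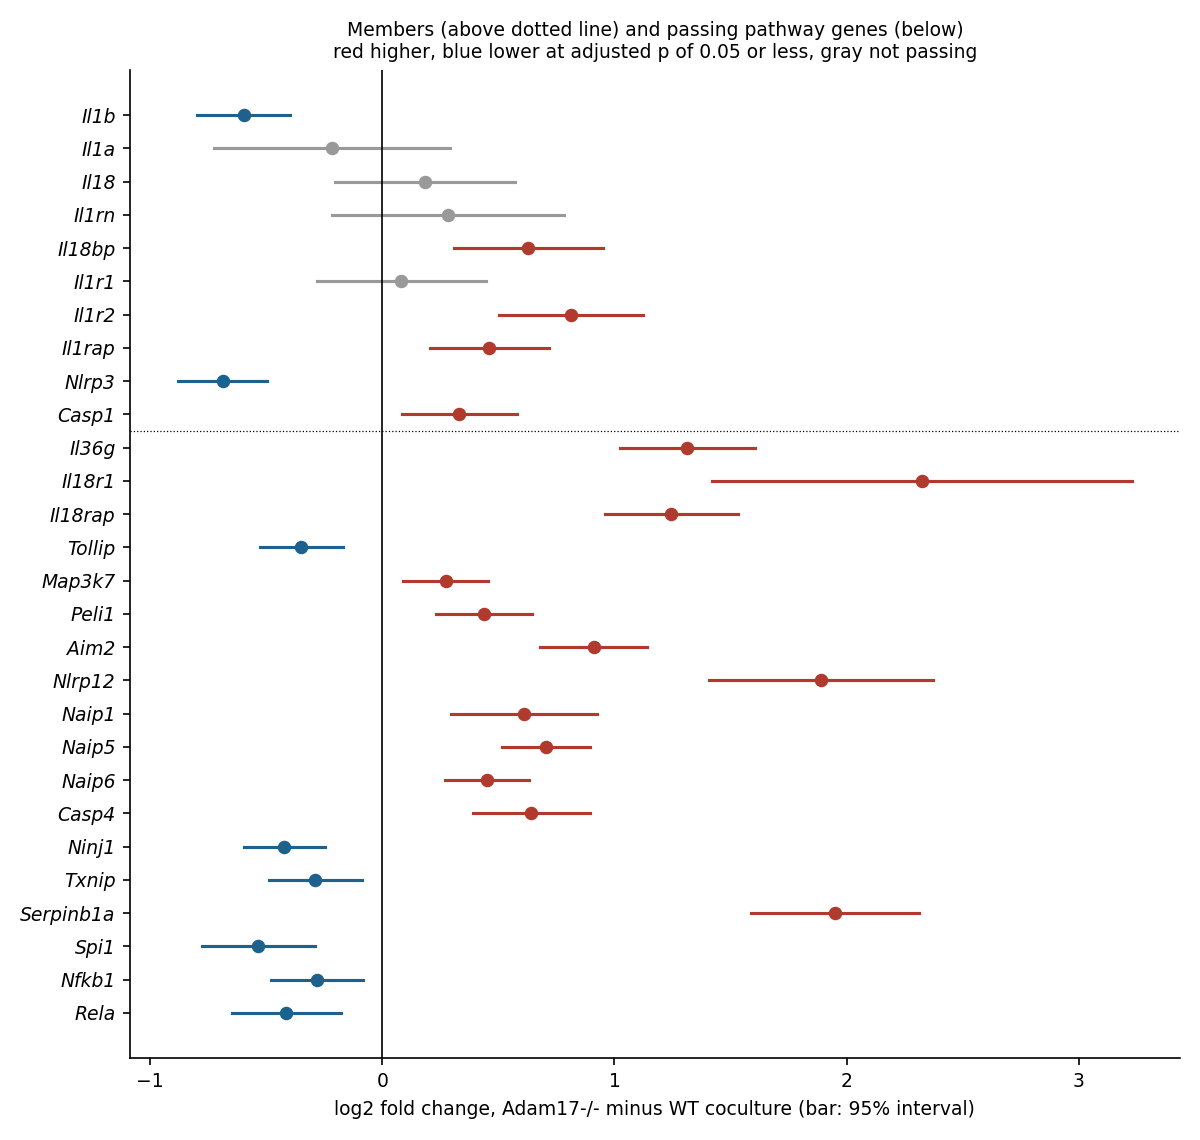
Log2 fold change of Adam17-/- against WT coculture (horizontal axis) with 95% intervals from edgeR's quasi-likelihood fit, for the 10 members above the dotted line and the 18 passing genes of the other pathway lists below it. Gray intervals did not pass the adjusted p of 0.05. Among the members, Il1b and Nlrp3 lie below 0 and Il1r2, Il18bp, Il1rap, and Casp1 above it.

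Per length, Il1b was the most abundant member with both cocultures, at 120 ± 10.5 FPKM (SD, n = 2) with WT and 87.7 ± 6.07 FPKM (n = 3) with Adam17-/- coculture. With WT coculture it was followed by Nlrp3 (35.9 ± 1.47), and then by Casp1, Il1r2, and Il1rn at 27.2, 23.5, and 18.2 FPKM, where neighbors in this order overlapped. The other 5 members were at 4.61 to 6.41 FPKM, and no neighbors among them were apart. With Adam17-/- coculture the order was Il1b, Il1r2 (46.0 ± 3.31), Casp1 (37.7 ± 1.98), and then Nlrp3 and Il1rn, both at 24.6 FPKM and overlapping. Thus Il1r2 and Casp1 were above Nlrp3 in each Adam17-/- library, while in both WT libraries Nlrp3 was above them. Il18bp, Il1rap, and Il18 followed at 11.03, 9.62, and 7.36 FPKM without overlap between neighbors, and Il1r1 and Il1a overlapped at 5.39 and 4.85 FPKM.

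**Figure D4:**
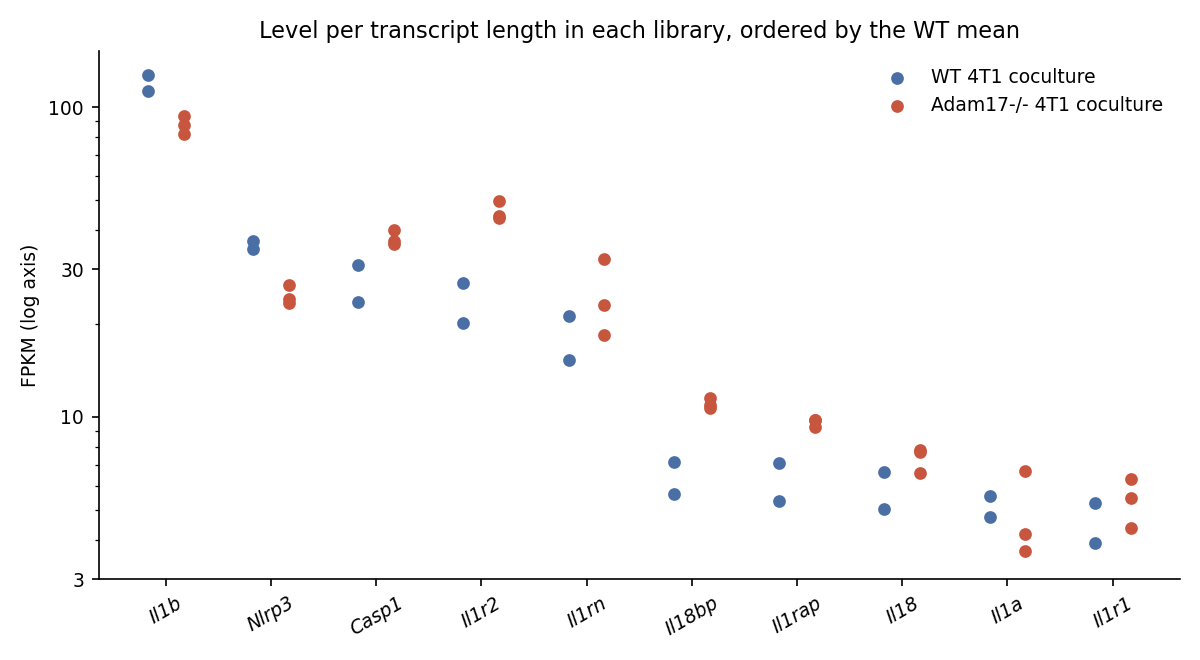
FPKM per library (log axis) of the 10 genes, ordered by the mean of the WT cocultures, with 1 point per library. Il1b is highest in both groups, and Nlrp3 lies above Casp1 and Il1r2 with WT coculture and below them with Adam17-/- coculture.

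For 8 of the members, 1 transcript was listed, and for Il1rn and Il1rap the authors' estimates divided the counts among several. Of the Il1rn count, the transcript coding for 178 residues, the secreted form, took 49.2% and 56.9% in WT libraries and 67.1%, 46.6%, and 66.7% in Adam17-/- libraries. The transcript of 159 residues took 38.4%, 30.5%, 16.9%, 37.0%, and 29.1% in the same order. These shares varied as much within as between groups. Of the Il1rap count, the transcript for the full membrane receptor of 570 residues took 92.6% to 96.2%. The transcript for the short soluble form of 360 residues took 4.48% and 3.80% with WT and 5.0%, 6.0%, and 7.05% with Adam17-/- coculture, from 21.6 to 53.1 expected counts, with the 3 higher shares all in Adam17-/- libraries. How RSEM divides reads among transcripts carries an error that is not given in the files, and these shares were not tested.

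**Figure D5:**
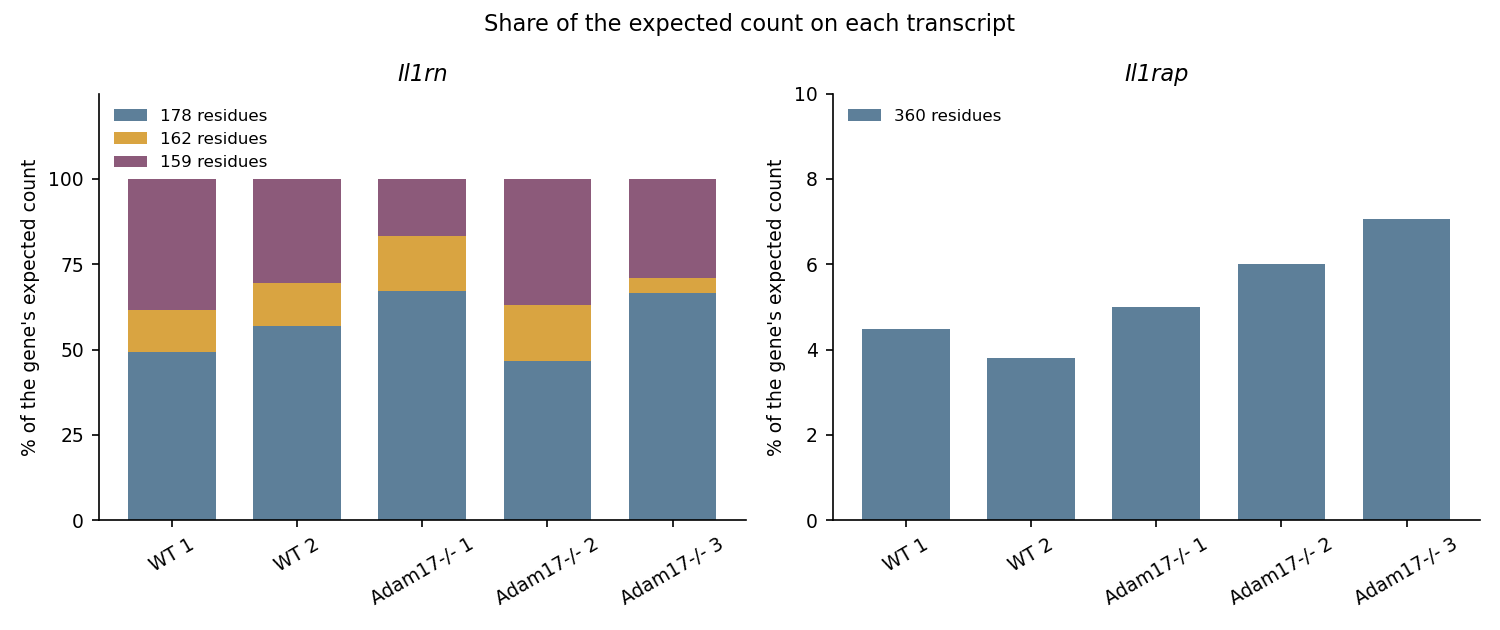
Percent of the gene's expected count assigned to each listed transcript in each library, for Il1rn (3 transcripts, stacked to 100) and for the short soluble transcript of Il1rap (axis from 0 to 10). For Il1rn the shares vary within each group, and for Il1rap they run from 3.80% to 7.05%.

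Several members have relatives in their neighborhood. On chromosome 1, Il1r2, Il1r1, Il1rl2, Il1rl1, Il18r1, and Il18rap lie within 467 kb in this order. Il18r1, the IL-18 binding chain, rose at low counts of 4 and 9 with WT and 28, 30, and 34 with Adam17-/- coculture (log2 fold change 2.32 ± 0.40, SE, adjusted p = 0.0032 by edgeR, and 0.50 with limma on log2(FPKM + 1)). Its partner chain Il18rap rose with 157 and 129 against 341, 257, and 348 counts (1.24 ± 0.13, SE, adjusted p = 0.0004). Il1r2 rose also, as given above, whereas Il1r1, Il1rl2 (0.25, adjusted p = 0.147), and Il1rl1 (0.53, adjusted p = 0.333) did not pass by edgeR. On chromosome 9, Casp4, which encodes the caspase that senses cytosolic lipopolysaccharide, lies 1.57 kb from Casp1 and rose with it (0.64 ± 0.11, SE, adjusted p = 0.0033 by edgeR). Il36g, a family member 143 kb from Il1rn, rose by 1.31 ± 0.13 on the log2 scale (SE, adjusted p = 0.0004 by edgeR), and its count was not a whole number. Of 15 neutrophil markers, 12 rose in the same libraries by edgeR. Over all 15, log2 fold changes ran from 0.14 (Mmp8, not passing) to 2.18 (Ltf), with Cxcr2 at 1.17 and Lcn2 at 1.24. The part of neutrophil markers in the increases above was not tested.

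Over the 58 other genes of the pathway lists, 50 were tested, of which 12 rose, 6 fell, and 32 did not pass, and their median log2 fold change was -0.02. Over all genes tested, the shares that rose and fell were 14.9% and 16.8%. Of the other ligands only Il36g was tested. Of the 5 other receptors tested, 2 rose, Il18r1 and Il18rap, and 0 fell by edgeR, also at an unadjusted p under 0.05 and with DESeq2. Of these receptors, Il1rl2 had the highest FPKM, 5.87 over all libraries. Among 14 genes of IL-1 receptor signaling, Peli1 (0.44, adjusted p = 0.0073), a ubiquitin ligase, and Map3k7 (0.27, adjusted p = 0.030), the kinase TAK1, rose, and Tollip (-0.35, adjusted p = 0.010), an adaptor that restrains IRAK, fell by edgeR. The other 11 did not pass, among them the adaptor Myd88 (0.05) and the gene with the highest FPKM of this list, Tab2 (-0.10). Of the 3 calls, Map3k7 and Tollip were lost with the replicate block (adjusted p = 0.199 and 0.0931), and Tollip with limma on FPKM (0.0754 and 0.0753 with the smaller and the larger pseudocount). Map3k7 was also lost without any 1 of the Adam17-/- libraries (adjusted p from 0.0826 to 0.109), and Tollip without Adam17-/- replicate 1 (adjusted p = 0.0800) or 2 (0.0539), or with library size alone as scaling (-0.20, adjusted p = 0.0738).

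Of the 12 other inflammasome sensors and adaptor genes tested, 5 rose and 0 fell by edgeR, against 1 that fell at an unadjusted p under 0.05 and 1 with DESeq2, in both cases Mefv. Over all genes tested, 14.9% rose and 16.8% fell, and the neutrophil and dendritic cell lists rose in the same libraries, with no test of their part. Aim2, a sensor of cytosolic DNA and the highest of the list in FPKM, had 1137 and 1367 counts with WT and 2301, 1894, and 2375 with Adam17-/- coculture (log2 fold change 0.91 ± 0.10, SE, adjusted p = 0.0006). Nlrp12 rose from 35 and 23 to 100, 87, and 113 counts (1.89 ± 0.22, SE, adjusted p = 0.0006 by edgeR, and 0.85 with limma on log2(FPKM + 1)). Naip5 (0.71, adjusted p = 0.0007), Naip1 (0.61, adjusted p = 0.010), and Naip6 (0.45, adjusted p = 0.0036), which encode sensors of bacterial proteins, also rose by edgeR, but these genes share sequence, and their counts were not whole numbers, so that the division among them is uncertain. The adaptor ASC (Pycard) did not pass (-0.13, adjusted p = 0.368 by edgeR). Mefv, the gene of the sensor pyrin, was nearest to the threshold in the direction of Nlrp3 (-0.29, adjusted p = 0.058 by edgeR).

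Downstream of caspase-1, the pore-forming gasdermin D gene Gsdmd did not pass (-0.12, adjusted p = 0.286 by edgeR). Ninj1, needed for membrane rupture, had the highest FPKM of the caspase and gasdermin list, at 219 FPKM with WT and 181 FPKM with Adam17-/- coculture, and it fell (-0.42 ± 0.08, SE, adjusted p = 0.0039). Of 6 inflammasome triggers and brakes, Serpinb1a, an inhibitor of neutrophil proteases and inflammatory caspases, rose from 78 and 75 to 277, 277, and 264 counts (1.95 ± 0.16, SE, adjusted p = 0.0002 by edgeR). Some neutrophil markers rose by like amounts in the same libraries, among them Ltf (2.18), Ngp (1.97), and S100a8 (1.78). Others changed less, such as Csf3r (0.59) and Mmp8 (0.14, not passing). The part of neutrophil markers in the Serpinb1a difference was not tested. Txnip, the gene with the highest FPKM of that list, fell at the threshold (-0.29 ± 0.09, SE, adjusted p = 0.036 by edgeR), but with library size alone as scaling its change was -0.14 (adjusted p = 0.256), and the call was lost without WT replicate 2 (adjusted p = 0.0825) or any 1 of the Adam17-/- libraries (0.107 to 0.182).

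Of 7 regulators of the Il1b transcript, 3 fell and 0 rose by edgeR. Over all genes tested, 16.8% fell and 14.9% rose. At an unadjusted p under 0.05 by edgeR, Cebpb (-0.32) and Zc3h12a (-0.28) fell as well, and 0 rose at that level or with DESeq2. Spi1, which encodes PU.1, had the highest FPKM of the 7. It was at 8784 and 6596 counts with WT and 4996, 4198, and 5587 counts with Adam17-/- coculture (-0.54 ± 0.11, SE, adjusted p = 0.0063 by edgeR). The NF-kappaB subunit genes Rela (-0.41, adjusted p = 0.016) and Nfkb1 (-0.28, adjusted p = 0.037) also fell by edgeR. With scaling by library size alone, where the median change over all genes tested was 0.16, both calls were lost (-0.26, adjusted p = 0.0623, and -0.13, adjusted p = 0.242). Both were also lost with limma on FPKM and with the replicate block, and Nfkb1 with upper quartile factors (adjusted p = 0.0774). Without WT replicate 1, Rela was -0.23 and still passed. Rela was also lost without Adam17-/- replicate 1 (adjusted p = 0.0790) or 3 (0.0616), and Nfkb1 without WT replicate 1 (-0.19, adjusted p = 0.0751) or any 1 of the Adam17-/- libraries (0.106 to 0.157). Spi1, Il1b, and Nlrp3 passed as lower under all 13 alternatives run, and Spi1 was -0.35 without WT replicate 1 and -0.71 without WT replicate 2. Macrophage markers fell as a list beside these genes, and their part was not tested.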

How the data were processed

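The 5 RNA-Seq libraries of BMDMs were grouped by their labels. The authors sequenced the libraries (BGI), and the processing notes name mm10, Bowtie, Bowtie2, RSEM, and DESeq2, with no versions. Per transcript and library, the authors deposited an expected count, which is an estimate without normalization, and an FPKM value, scaled by transcript length and depth. Transcripts listed for a library have an FPKM of at least 0.01, and a transcript that is not listed was taken as 0. Strand use in counting is not given in the sources used here.

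Both values were summed per Entrez gene. Between 16.0% and 16.8% of the gene sums in each library were not whole (tolerance 0.005), and rounding changed no count by more than 0.5. Counts were tested over 12576 genes with edgeR 4.0.16 in R 4.3.3 (TMM, filterByExpr, glmQLFit, glmQLFTest, no covariates) with Benjamini-Hochberg adjustment. CPM are TMM-normalized. A count of 3, the floor, equals 0.157 to 0.197 CPM. The scripts were tested on simulated data. Members and lists were chosen with earlier results of these data known. The named genes were all members and, of each other pathway list, the genes passing and the one with the highest mean FPKM. Il1rl1, Mefv, Pycard, Gsdmd, Myd88, Cebpb, and Zc3h12a were named after their values were seen. The same holds for single genes of the cell type lists. Alternatives were DESeq2 1.42.0, other scaling and filters, limma 3.58.1 on FPKM, a stricter threshold, a replicate block, and leaving out each replicate. Gene positions and promoter windows came from RefSeq on GRCm38.p6, with GENCODE vM21 for transcript starts. Other tools were Python 3.11.15, pandas 2.3.3, and matplotlib 3.10.9.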

Additional observations from a re-analysis of the deposited data

How the results depend on the processing

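Il1b, Nlrp3, Il1r2, and Il18bp passed in the same direction under all 13 alternatives. Casp1 was lost with DESeq2 (0.32) and the replicate block (0.35), and without single libraries it ranged from 0.17 to 0.50; Il1rap ranged from 0.29 to 0.64, and Il1r1 from -0.10 to 0.27, with -0.10 without WT replicate 1 and -0.03 without Adam17-/- replicate 2. Il1a was -0.53 with the block and did not pass. The block compares only replicates 1 and 2, because no WT library is numbered 3. With the threshold at an adjusted p of 0.001 and a log2 fold change over 0.25 in size, 0 members were higher and 1 lower; without single libraries 2 to 4 members were higher and 0 to 1 passed the fold limit of 1. With at least 10 counts in every library 1 other receptor was higher. Of the signaling genes, 1 was higher with the block, 1 to 4 without single libraries, and lower were 0 with library size alone, limma on FPKM with a pseudocount of 0.1 or 1, and the block, and 0 to 2 without single libraries. Of the sensors, 1 was lower with DESeq2 and with no filter, and 0 to 3 without single libraries. Of the triggers and brakes, 0 were lower with upper quartile factors, library size, limma, and the block, 0 to 2 without single libraries, and 1 to 2 were then higher. Of the regulators, 1 was higher with library size and 0 to 1 without single libraries, and 1 was lower with library size, limma, and the block, with 1 to 5 without single libraries. The cause was not tested. Fits without a WT library assume that the lone WT sample varies like the others.

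Over all genes, 1869 were higher and 2114 lower, against 3019 and 1077 with library size alone (median log2 fold change 0.16), 2927 and 1016 with limma on log2(FPKM + 0.1), 2867 and 1011 with log2(FPKM + 1), 2237 and 1624 with upper quartile factors, and 1216 and 1126 with the replicate number as a block. Same-numbered WT and Adam17-/- libraries deviated with correlations of -0.18 and -0.10, so that the numbers are not taken to pair samples. Without single libraries the calls were 1089 to 2460 higher and 926 to 2940 lower. Genes near the floor, such as Il18r1, have fold changes that depend on the pseudocount.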

Other observations

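Some pathway genes outside the members were picked after their values were seen. Brcc3, a deubiquitinase of NLRP3, varied within the WT group, with 184 and 403 counts in WT replicates 1 and 2 and 335 to 407 in the Adam17-/- libraries, and it did not pass (0.48, adjusted p = 0.181 by edgeR). Il33 had 1 count, in Adam17-/- replicate 3, and Nlrp6 had 1 count, in Adam17-/- replicate 2.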
